A study of Rattus norvegicus with 2 samples.

Results

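The genes of blood and lymphatic vessels were followed in urinary bladder RNA of rats given dimethylarsinic acid (DMA), an organic arsenic compound. The set held 41 gene symbols, listed by name with earlier results of these data known: markers of endothelial cells, which line every vessel, and of pericytes, the contractile cells that wrap small vessels. A gene was read from the array cluster (a group of probes that covers 1 transcript) whose only annotated symbol was that gene, and from the brightest such cluster where there were several. By this rule 39 of the 41 genes had a value, of 22093 genes on the array in all. Ednrb, an endothelin receptor, was not analysed here. Egfl7, a secreted endothelial factor, was annotated only on a cluster shared with the microRNA gene Mir126b (signal 114.8 in the DMA pool and 102.2 in the control pool), so it was left out of every count.

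The DMA group was male F344 rats that drank water with 200 ppm DMA over 4 weeks, and the control group was male F344 rats given water with 0 ppm. Per the labels the animals were 6 weeks old at the start and 10 weeks old at sampling, and the RNA of 7 rats was mixed into 1 pool in each group, so that each group was 1 array. The labels name the tissue as urinary bladder, whereas the methods of the study state a greater starting age and a recovery of epithelial cells by swirling inverted bladders in TRIzol, and which of these holds for the pools is not settled by the sources. Markers of several layers were present in both pools, since 13 of 14 urothelial, 12 of 12 fibroblast and 10 of 10 smooth muscle markers were measured.

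Endothelial cells grow, rest and form new branches under a small set of receptors. Vascular endothelial growth factors (VEGFs) act through the receptor kinases Kdr and Flt1, the angiopoietins act through Tek, and Notch signalling sets apart the leading tip cell from the stalk cells behind it. During inflammation the endothelium of small veins displays adhesion molecules that let leukocytes stop and leave the blood. In the bladder, a capillary network lies directly beneath the urothelium.

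Signals are linear intensities after RMA, a method that corrects background and makes the arrays' distributions alike. A gene was taken as measured where its signal reached 100 in the DMA pool, the control pool or both, as in 11718 genes (53.0%) of all and in 24 of the 39 vessel genes. A log2 ratio is the log2 of the DMA signal over the control signal, so a negative value means a lower signal in the DMA pool. Each ratio was also placed among its 500 nearest measured genes in mean signal, as Z, the distance from their mean in standard deviations. With 1 array per group there was no spread between replicates, so no difference below carries a test, a standard error or a p-value, and each compares these 2 arrays. The median signal over all clusters was 53.2 on the DMA array and 49.7 on the control array. The measured genes had a median log2 ratio of -0.04, with the middle 50% between -0.18 and 0.08.

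The vessel genes were mostly somewhat lower in the DMA pool. Of the 24 measured genes, 19 had a log2 ratio below 0 (79.2%) and 5 above it, while 58.9% of all measured genes lay below 0. Their median was -0.26 (quartiles -0.45 and -0.11), a 1.20-fold lower signal in the DMA pool. Without Ackr1, which passed the minimum in the control pool only, the median of the other 23 was -0.27. None reached a 2-fold lower signal with a Z of at most -2, a rule that 1.42% of all measured genes met, and none reached a 2-fold higher signal with a Z of at least 2, which 0.375% met. By the weaker rule of a 1.5-fold lower signal, 5 of the 24 genes were called (20.8%), beside 5.48% of all measured genes. None was 1.5-fold higher, beside 1.3% of all measured genes. The other 19 genes stayed within 1.5-fold. In RNA pooled from many cells, fewer cells of a type and less RNA per cell cannot be told apart.

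**Figure D1:**
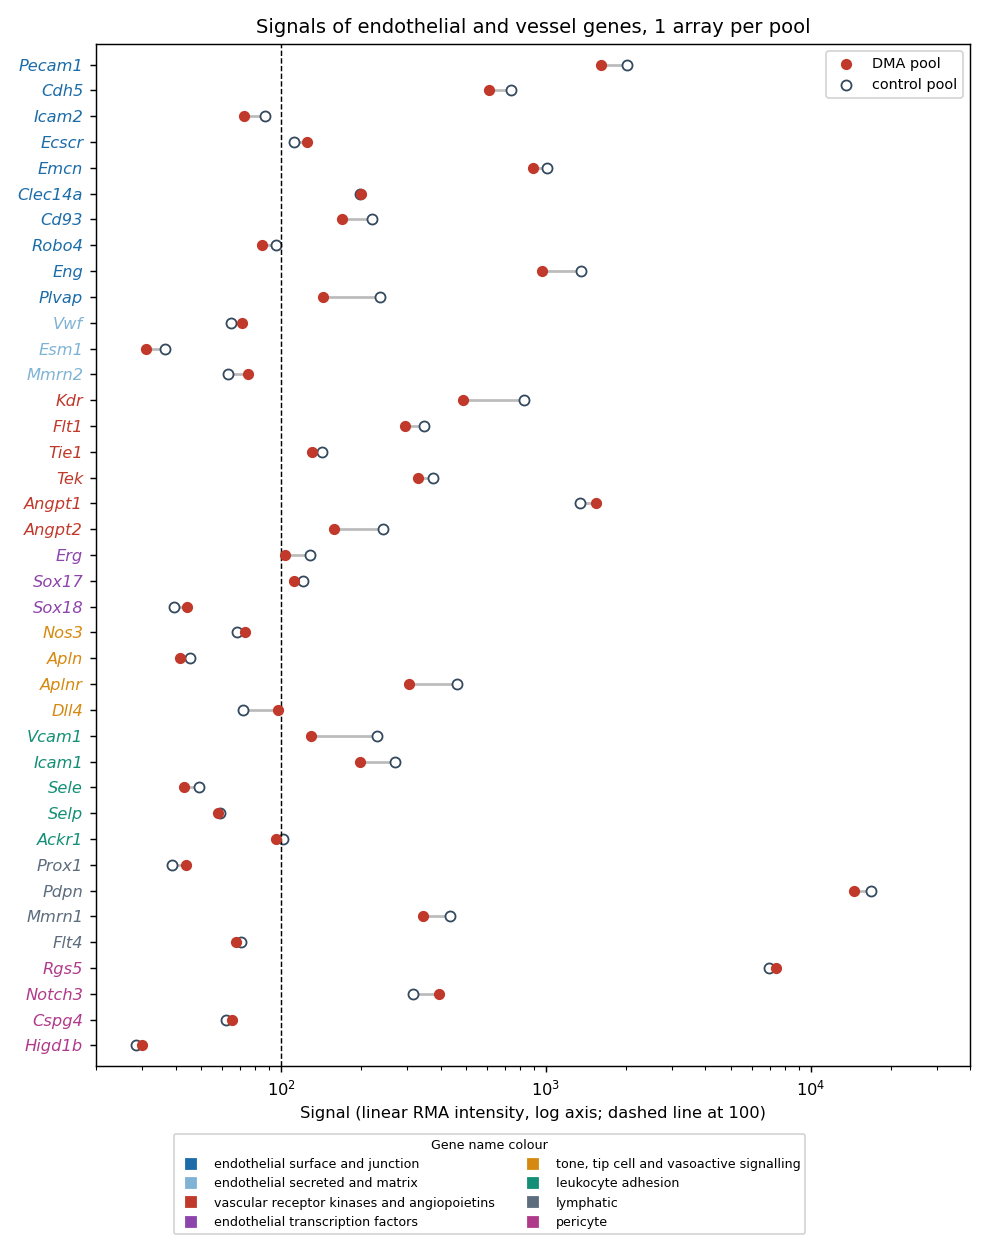
Signal of each of the 39 vessel genes (rows, grouped by role, with the name coloured by role) in the DMA pool (filled red) and the control pool (open), as linear intensity on a log axis, 1 array per pool with no error bars. The dashed line is the minimum of 100, and the widest gaps with the DMA point on the left are those of Vcam1, Kdr and Plvap.

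The 5 genes were Vcam1, Kdr, Plvap, Angpt2 and Aplnr. Vcam1 is an adhesion molecule for leukocytes, Kdr the main VEGF receptor and Plvap a protein of capillary pores. Angpt2 is a ligand of Tek, and Aplnr is the receptor for apelin. Kdr and Angpt2 belong to the same role group, and each of the others to a different one. Aplnr lay just inside the 1.5-fold limit with a 1.52-fold lower signal, and Eng was the nearest gene outside it with a 1.403-fold lower signal. At the other end, Notch3 had the highest log2 ratio of the measured genes, at 0.32, and Angpt1 followed at 0.20.

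**Figure D2:**
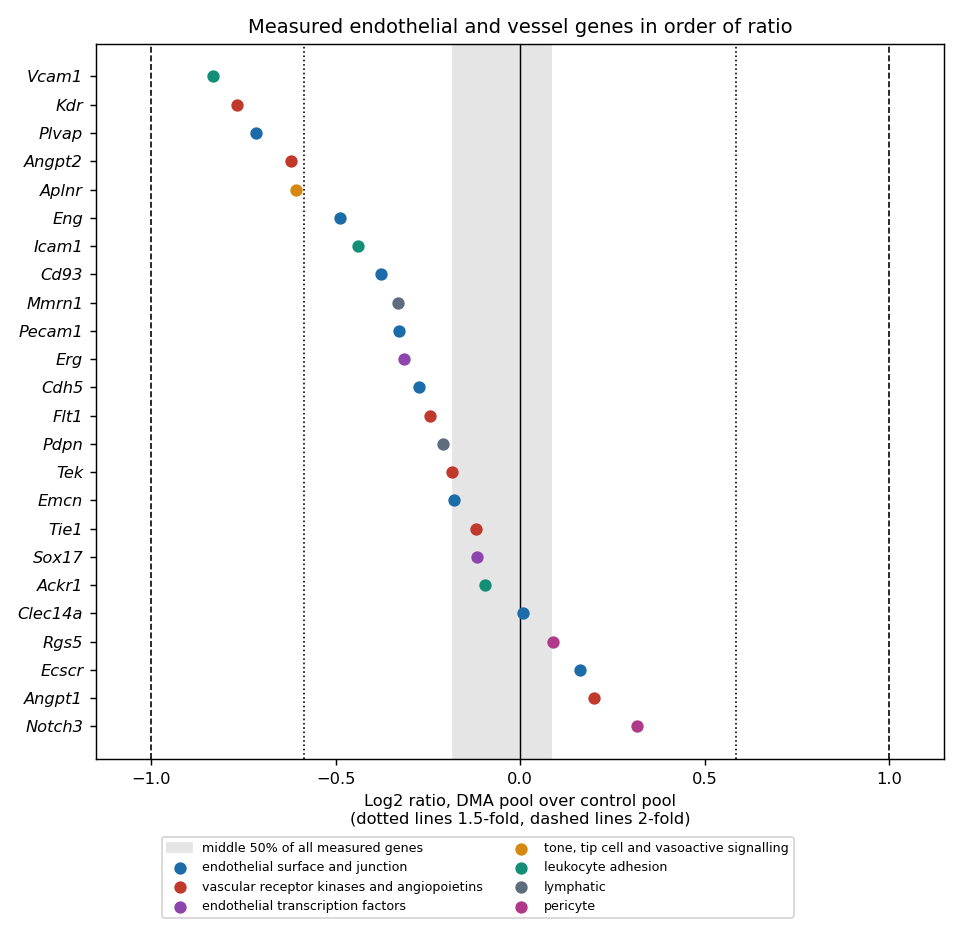
Log2 ratio of the DMA pool over the control pool (horizontal axis) for the 24 measured vessel genes, in order of ratio and coloured by role, 1 array per pool. The grey band spans the middle 50% of all measured genes (-0.18 to 0.08), dotted lines mark 1.5-fold and dashed lines 2-fold, and 5 genes lie left of the dotted line on the lower side while none lies beyond the dashed lines.

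The promoters shown are those of the genes with the most negative ratios among the genes matched to a promoter. Among the genes shown, Eng was less than 1.5-fold lower in the DMA pool. Whether the genes shown share any control was not tested. Promoter windows of 250 bases before to 50 bases after the start were taken from RefSeq (GRCr8) and matched by symbol for 23 of the 39 genes, among them Vcam1, Kdr, Plvap and Eng. Angpt2 and Aplnr were not matched. Each is printed in lower case with motif matches in capitals. The motifs searched on both strands were AGGAAG or CGGAAG, the core bound by ETS factors such as Erg, ACAAAG or ACAATG, a core bound by SOX factors, GGGNTTTCC, an NF-kB type site, and TATAAA, the TATA box.
Vcam1, chr2:206742734-206743033, minus strand: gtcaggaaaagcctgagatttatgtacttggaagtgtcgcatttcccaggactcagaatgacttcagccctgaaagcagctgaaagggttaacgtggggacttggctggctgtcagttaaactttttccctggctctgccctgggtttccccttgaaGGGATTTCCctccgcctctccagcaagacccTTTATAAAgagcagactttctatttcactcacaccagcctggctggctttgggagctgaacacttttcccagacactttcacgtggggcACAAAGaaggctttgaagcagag
Kdr, chr14:32571813-32572112, plus strand: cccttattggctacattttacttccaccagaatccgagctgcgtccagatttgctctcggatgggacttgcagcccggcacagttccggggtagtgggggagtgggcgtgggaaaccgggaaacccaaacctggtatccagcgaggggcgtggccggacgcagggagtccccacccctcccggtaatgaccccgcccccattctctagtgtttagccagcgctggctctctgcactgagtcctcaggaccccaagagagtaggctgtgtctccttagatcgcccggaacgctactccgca
Plvap, chr16:18231230-18231529, minus strand: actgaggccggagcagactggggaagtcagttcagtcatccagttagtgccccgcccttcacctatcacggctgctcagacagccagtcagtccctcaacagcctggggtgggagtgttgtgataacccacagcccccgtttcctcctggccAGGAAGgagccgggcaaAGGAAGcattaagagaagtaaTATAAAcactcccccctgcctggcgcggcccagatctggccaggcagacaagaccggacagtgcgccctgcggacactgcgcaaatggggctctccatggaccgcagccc
Eng, chr3:36332029-36332328, plus strand: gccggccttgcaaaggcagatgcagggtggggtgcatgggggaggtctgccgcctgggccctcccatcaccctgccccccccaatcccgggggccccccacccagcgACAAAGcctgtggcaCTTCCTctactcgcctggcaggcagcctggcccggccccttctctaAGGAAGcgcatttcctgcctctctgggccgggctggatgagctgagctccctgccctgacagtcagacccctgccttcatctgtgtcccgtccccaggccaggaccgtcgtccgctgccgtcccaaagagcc
These windows differed in the letters they hold. The Vcam1 window had 1 NF-kB type match, 1 SOX core and 2 TATA matches, which overlap each other on opposite strands. The Plvap window had 2 ETS cores and 1 TATA match. The Eng window had 2 ETS cores, 1 of them read on the opposite strand, and 1 SOX core. The Kdr window held none of the motifs searched, so no motif searched was in all 4 windows. Over the 23 matched vessel genes, 14 windows held an ETS core (60.9%), beside 45.9% of all 27457 promoters of the table. A SOX core was in 8 of the 23 windows (34.8%), beside 28.6% of all, and a TATA match in 6 of the 23, beside 14.3% of all. The 23 include dim genes. Among the 15 of them that were measured, 8 windows held an ETS core, 5 a SOX core and 4 a TATA match. The NF-kB type site was in the Vcam1 window alone of the 23, and in 1.58% of all promoters. A match of letters is a description and not a binding site.

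Among the proteins of the endothelial surface and of cell junctions, 8 of 10 were measured. Their median log2 ratio was -0.30, with 6 genes below 0, 2 above, and 1 that was at least 1.5-fold lower.

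Pecam1, the adhesion molecule at endothelial junctions that is also present on platelets and leukocytes, had a signal of 1610.3 in the DMA pool, against 2023 in the control pool (log2 ratio -0.33, Z -0.73). Cdh5, the cadherin that holds endothelial cells to each other, had 611 in the DMA pool and 739 in the control pool (log2 ratio -0.27). Emcn, a sialomucin of capillary and venous endothelium, had 894 in the DMA pool and 1012 in the control pool (log2 ratio -0.18). Pecam1, Cdh5 and Emcn were thus lower in the DMA pool by ratios that many genes of like signal shared. Of the 500 nearest genes, 12.4% had a lower ratio than Pecam1, 18.0% a lower one than Cdh5 and 26.0% a lower one than Emcn.

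Plvap forms the diaphragms that close the pores of fenestrated capillaries and of caveolae. Its signal was 144 in the DMA pool, against 236 in the control pool, a 1.64-fold lower value (log2 ratio -0.72, Z -2.02). Eng, or endoglin, a co-receptor that helps ALK1 bind its ligands of the BMP family, had 963 in the DMA pool and 1352 in the control pool (log2 ratio -0.49, Z -1.34). Cd93, a C-type lectin receptor of endothelium and myeloid cells, had 169 in the DMA pool and 219.9 in the control pool (log2 ratio -0.38). Plvap, Eng and Cd93 were the 3 lowest ratios of this group.

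The 2 genes of the group above 0 were close to even. Clec14a, a lectin receptor related to Cd93, had 199.8 in the DMA pool and 198.9 in the control pool (log2 ratio 0.01), and this sign turned when the arrays were centred on their medians (-0.09). Ecscr, a small surface protein of endothelial cells, had 125 in the DMA pool and 112 in the control pool (log2 ratio 0.16). Both Icam2, a constitutive endothelial ligand of leukocyte integrins, and Robo4, the endothelial roundabout receptor, were under the minimum in both pools. Icam2 had 72.7 in the DMA pool and 86.9 in the control pool, and the brightest of 3 Robo4 clusters had 84.7 in the DMA pool and 96.0 in the control pool. The log2 ratios of the other Robo4 clusters were -0.03 and -0.20.

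Of the secreted and matrix proteins of endothelium, Egfl7 was left out, and Vwf, Mmrn2 and Esm1 were all under the minimum. Vwf, the von Willebrand factor that tethers platelets and is a defining marker of endothelium, had a signal of 71.3 in the DMA pool and 64.8 in the control pool. Mmrn2, a matrix protein of endothelium that binds Clec14a and Cd93, had 74.7 in the DMA pool and 63.2 in the control pool. Esm1, or endocan, a product of VEGF-stimulated tip cells, had 30.9 in the DMA pool and 36.5 in the control pool. The signals of Vwf and Mmrn2 were slightly higher in the DMA pool, unlike those of the junction markers, but at signals where the arrays measure little.

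All 6 receptor kinases and angiopoietins were measured, with a median log2 ratio of -0.21, and 2 of them were at least 1.5-fold lower in the DMA pool. Kdr, or VEGFR2, carries most of the growth signal of VEGF-A into endothelial cells. It had a signal of 487 in the DMA pool, against 829 in the control pool, a 1.70-fold lower value (log2 ratio -0.77, Z -2.03). Flt1, or VEGFR1, which binds VEGF-A tightly and in a soluble form acts as a decoy, had 293 in the DMA pool and 347 in the control pool (log2 ratio -0.25). A dimmer Flt1 cluster had 109 in the DMA pool and 125 in the control pool (log2 ratio -0.20). The ratio of Kdr was therefore further from even than that of Flt1 on either cluster, and the share of the 500 nearest genes with a lower ratio was 4.6% for Kdr and 16.8% for Flt1.

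Tek, or Tie2, the receptor that keeps resting vessels stable, had 329.7 in the DMA pool and 375 in the control pool (log2 ratio -0.18). Tie1, its partner receptor with no well established ligand of its own, had 131 in the DMA pool and 143 in the control pool (log2 ratio -0.12). Both receptors lay near the edge of, or inside, the middle 50% of all measured genes.

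The angiopoietins, by contrast, stood on opposite sides of 0. Angpt2, which endothelial cells release when vessels are remodelled and which can oppose Angpt1 at Tek, had 158 in the DMA pool, against 243 in the control pool, a 1.54-fold lower signal (log2 ratio -0.62, Z -1.88). Angpt1, the activating ligand of Tek that is made mainly by mural and stromal cells, had 1549 in the DMA pool and 1348 in the control pool (log2 ratio 0.20, Z 0.85). Among its 500 nearest genes 92.4% had a lower ratio than Angpt1, and 4.2% had a lower ratio than Angpt2.

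The transcription factors of endothelium had signals near or under the minimum of 100. Erg, an ETS factor that maintains endothelial identity, had 103 in the DMA pool and 128 in the control pool (log2 ratio -0.31). Sox17, an arterial SOX factor, had 112 in the DMA pool and 121 in the control pool (log2 ratio -0.12). Sox18, needed for lymphatic development, was under the minimum, with 44.0 in the DMA pool and 39.4 in the control pool.

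Of 5 genes for vascular tone, tip cells and vasoactive signalling, Aplnr alone was measured. This receptor for the peptide apelin had a signal of 304 in the DMA pool, against 463 in the control pool (log2 ratio -0.61, Z -1.87), while Apln, which encodes apelin, was dim at 41.5 in the DMA pool and 45.2 in the control pool. Nos3, the endothelial nitric oxide synthase, was also under the minimum, with 73.1 in the DMA pool and 68.1 in the control pool. Dll4, the Notch ligand of tip and arterial cells, was the nearest gene below the minimum. It had 97.1 in the DMA pool and 71.8 in the control pool, and its log2 ratio of 0.44 was the highest of all 39 genes, at a signal not counted as measured.

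Among the genes of leukocyte adhesion, 3 of 5 were measured, all with ratios below 0 and a median of -0.44. Vcam1 is the ligand of the leukocyte integrin that holds a pairing of Itga4 and Itgb1, and is displayed by inflamed endothelium and also by some stromal cells. Its signal was 129 in the DMA pool, against 230.2 in the control pool, a 1.78-fold lower value and the lowest log2 ratio of all 39 genes (-0.83, Z -2.45). Of its 500 nearest genes, 2.2% had a lower ratio. Icam1, a ligand of the beta2 integrins that many cell types carry, had 199 in the DMA pool and 269 in the control pool (log2 ratio -0.44, Z -1.26). Ackr1, the atypical chemokine receptor of venules and red cell precursors, was the nearest gene above the minimum, with 95.6 in the DMA pool and 102 in the control pool, so that it was measured through the control pool only (log2 ratio -0.09). The selectins that start leukocyte rolling were dim. Sele had 43.0 in the DMA pool and 48.9 in the control pool, and Selp had 57.6 in the DMA pool and 58.9 in the control pool.

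The defining markers of lymphatic endothelium, the transcription factor Prox1 and the VEGF-C receptor Flt4, were both under the minimum. Prox1 had 44.0 in the DMA pool and 38.7 in the control pool, and Flt4 had 67.4 in the DMA pool and 70.8 in the control pool. Mmrn1, made by lymphatic endothelium and platelets, had 345 in the DMA pool and 433 in the control pool (log2 ratio -0.33). Pdpn, or podoplanin, which fibroblasts, mesothelium and some basal epithelial cells carry beside lymphatic endothelium, had 14602 in the DMA pool and 16877 in the control pool (log2 ratio -0.21).

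Both measured pericyte genes had ratios above 0, of which that of Rgs5 turned to -0.01 when the arrays were centred on their medians. Notch3, the Notch receptor of mural cells, had 393 in the DMA pool and 316 in the control pool (log2 ratio 0.32, Z 1.42), and 97.2% of its 500 nearest genes had a lower ratio. Rgs5, a regulator of G protein signalling that marks pericytes and vascular smooth muscle, had 7394 in the DMA pool and 6952 in the control pool (log2 ratio 0.09, Z 0.55). The other pericyte genes were dim. Cspg4, the NG2 proteoglycan, had 65.4 in the DMA pool and 62.0 in the control pool, and Higd1b had 30.0 in the DMA pool and 28.4 in the control pool.

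Over the 15 genes under the minimum, signals ran between 28.4 and 97.1 with a median log2 ratio of 0.08, with 7 genes below 0 and 8 above. With all 39 genes kept the median was -0.18, with 26 below 0 and 13 above, beside a median of 0.029 over all genes with no minimum. Lower signals in the DMA pool thus made up most of the measured vessel genes but 7 of the 15 dim ones. The share below 0 among all dim genes of the array was not taken, so whether this contrast is particular to the vessel genes is not known. RMA draws the ratios of dim clusters towards 0, and 16 of the 24 measured genes had both signals under 500.

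**Figure D3:**
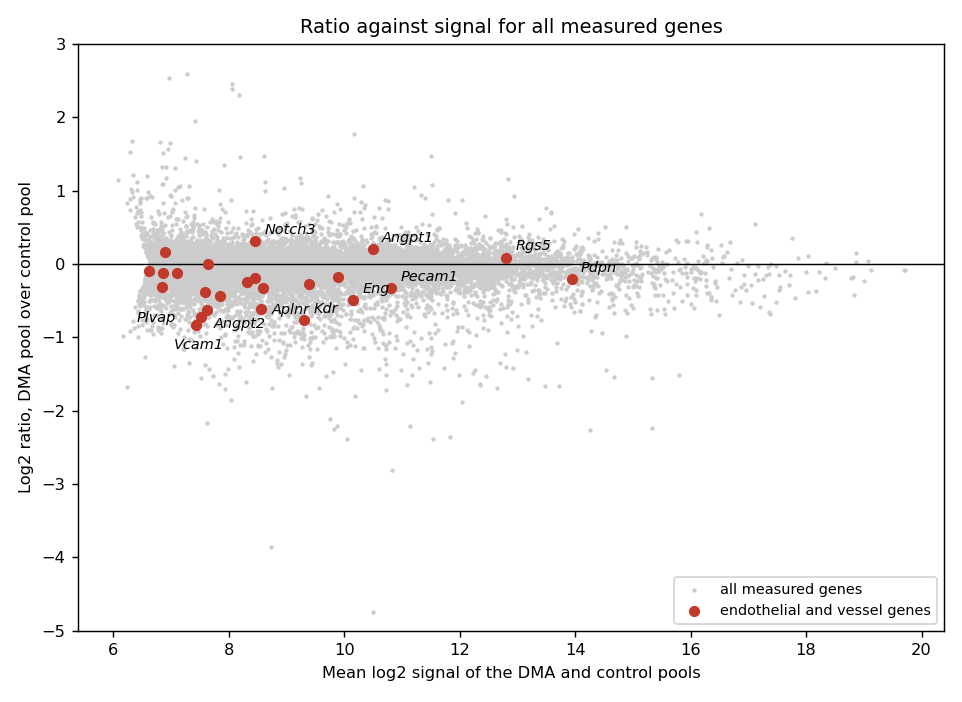
Log2 ratio of the DMA pool over the control pool (vertical axis) against mean log2 signal (horizontal axis) for the 11718 measured genes (grey) and the 24 measured vessel genes (red), 1 array per pool. The vessel genes sit inside the cloud, mostly on its lower side, and the lowest are Vcam1 (-0.83), Kdr (-0.77) and Plvap (-0.72), with many grey points below them.

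Some other genes of endothelium had log2 ratios further from 0 than any of the 39 genes. In a list of 32 further endothelial genes, 22 were measured with a median log2 ratio of -0.27, beside -0.26 for the vessel genes. Their quartiles were -0.66 and -0.02, and 5 had ratios above 0. At least 1.5-fold lower were 7 genes, beside 5.48% of all measured genes, and none was 1.5-fold higher, beside 1.3%. The same shares stand beside the counts of the lists below. Of the 7 lower genes, Ccl21, Calcrl and Cd34 were also 2-fold lower with a Z of at most -2, a rule that 1.42% of all measured genes met. Ccl21, the lymphatic chemokine that guides dendritic cells and T cells, had 239.8 in the DMA pool, against 776 in the control pool (log2 ratio -1.69). Lyve1, another lymphatic gene of this list, named after its values were seen, was close to even. It had 1226 in the DMA pool and 1301 in the control pool (log2 ratio -0.09). Calcrl, the receptor that binds adrenomedullin on endothelium, had 2979 in the DMA pool, against 9278 in the control pool (log2 ratio -1.64). Cd34, a sialomucin of capillary endothelium that fibroblasts also carry, had 879 in the DMA pool, against 1935 in the control pool (log2 ratio -1.14). Klf4, a flow-responsive factor of endothelium that epithelia also express, had 322 in the DMA pool and 529 in the control pool (log2 ratio -0.72).

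Around the VEGF and angiopoietin receptors, 13 of 16 ligands, co-receptors and transducers were measured, with a median log2 ratio of -0.25, and 3 were at least 1.5-fold lower. The neuropilins, co-receptors of Kdr and Flt4 that also bind semaphorins, were both among them. Nrp2 had 1498 in the DMA pool, against 3146 in the control pool (log2 ratio -1.07, 2-fold lower with a Z of at most -2), and Nrp1 had 335 in the DMA pool and 539.8 in the control pool (log2 ratio -0.69). Grb10, an adaptor of receptor kinases, had 277 in the DMA pool and 468 in the control pool (log2 ratio -0.75). Pdgfrb, the receptor that recruits pericytes, had 200.1 in the DMA pool and 282 in the control pool (log2 ratio -0.49). Vegfa, the ligand of Kdr and Flt1, named after its values were seen, had 1270 in the DMA pool and 1458 in the control pool (log2 ratio -0.20), so its ratio was nearer to even than that of Kdr.

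Of 19 Notch and ALK1 pathway genes, 15 were measured and 9 of these had ratios above 0, with a median of 0.05 that turned to -0.051 with the arrays centred on their medians. None was 1.5-fold lower or higher. Acvrl1, which encodes ALK1, the receptor that Eng assists, had 175 in the DMA pool and 256 in the control pool (log2 ratio -0.55), a ratio close to that of Eng (-0.49). The Notch ligands Jag2 and Jag1 had log2 ratios of 0.42 and 0.32, near that of Notch3 (0.32), although both ligands are also made by epithelium. Rbpj, the DNA-binding partner of all Notch receptors, had a log2 ratio of -0.39.

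Of 15 vasoactive genes, 10 were measured with a median log2 ratio of -0.23, and none was 1.5-fold lower or higher. The lowest were Agtr1a, an angiotensin receptor (131 in the DMA pool and 187 in the control pool, log2 ratio -0.52), and Prkg1, the kinase that relays nitric oxide in smooth muscle (232 in the DMA pool and 327 in the control pool, log2 ratio -0.50). Ece1, which activates endothelin, and Gucy1b1, a subunit of the nitric oxide receptor, had log2 ratios of -0.42 and -0.39.

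**Figure D4:**
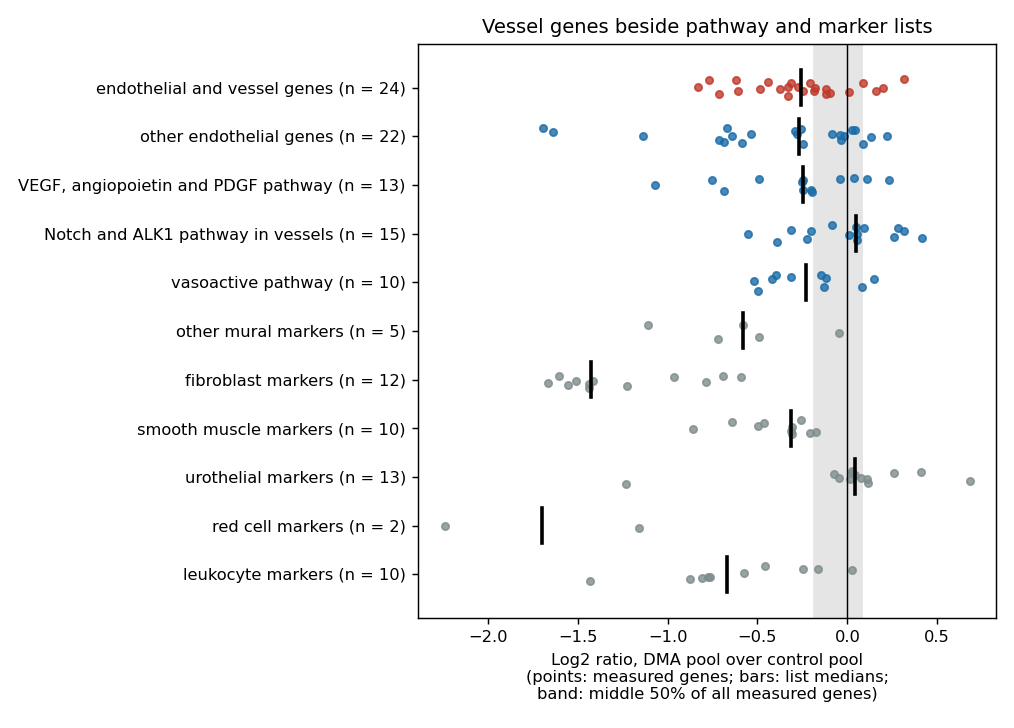
Log2 ratio of the DMA pool over the control pool (horizontal axis), 1 array per pool. Points are the measured genes of the vessel set and of each pathway or marker list except the platelet markers. Rows give the number measured, the black bar is the list median, and the grey band is the middle 50% of all measured genes. The vessel genes (median -0.26) lie between the urothelial markers (median 0.04, or -0.055 with the arrays centred) and the fibroblast markers (median -1.43).

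Markers of other cell types were lower in the DMA pool beside the vessel genes, and their part in the vessel ratios was not tested. The 12 fibroblast markers had a median log2 ratio of -1.43, all were at least 1.5-fold lower, and their summed signal was 221196 in the DMA pool and 458957 in the control pool. That median lay 1.17 below the median of the vessel genes. Of the 12 fibroblast markers, 8 were 2-fold lower with a Z of at most -2, beside 1.42% of all measured genes. No smooth muscle marker met that rule. Leukocyte markers had a median of -0.67 over 10 of 11 genes, with 5 at least 1.5-fold lower and a summed signal of 7653 in the DMA pool and 11277 in the control pool. The leukocyte marker Cd4, which rat macrophages also carry, had 950.4 in the DMA pool and 2566 in the control pool. Cd4 alone of the leukocyte markers was 2-fold lower with a Z of at most -2. Smooth muscle markers had a median of -0.31, close to the vessel genes, with 2 of 10 at least 1.5-fold lower and a summed signal of 561644 in the DMA pool and 726654 in the control pool. Urothelial markers had a median of 0.04 (-0.055 with the arrays centred on their medians). Their summed signal was 2074771 in the DMA pool and 1956840.3 in the control pool. Krt18 was the 1 gene at least 1.5-fold higher. Krt20 was the 1 gene at least 1.5-fold lower, with 1905 in the DMA pool and 4469 in the control pool (log2 ratio -1.23). Krt20 was also 2-fold lower with a Z of at most -2.

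Red cell and further mural markers are given for the same reason. Of 5 red cell markers, 2 were measured and both were 2-fold lower in the DMA pool with a Z of at most -2. Hbb, however, passed the minimum in the control pool only. With no minimum, the 4 red cell markers that had a cluster had a median log2 ratio of -0.87, against -1.70 for the 2 measured. Hba-a1, an alpha globin, had 18864 in the DMA pool, against 89173 in the control pool (log2 ratio -2.24), and Hbb, a beta globin, had 99.6 in the DMA pool, against 223 in the control pool (log2 ratio -1.16). The near-identical globin copies can share probes, so these values are uncertain as to the copy. Of 6 platelet markers only Pf4 was measured, with 136 in the DMA pool and 142 in the control pool (log2 ratio -0.07). The 5 further mural markers measured, of 7, all had ratios below 0, with a median of -0.58 and a summed signal of 2982 in the DMA pool and 5175 in the control pool, whereas Notch3 had a log2 ratio of 0.32 and Rgs5 one of 0.09 (-0.01 with the arrays centred). Among those mural markers, Abcc9 is a subunit of a potassium channel of pericytes and smooth muscle. It had 1144 in the DMA pool and 2466 in the control pool (log2 ratio -1.11). Abcc9 alone of the further mural markers was 2-fold lower with a Z of at most -2. Anpep, a surface peptidase that fibroblasts also carry, had 202 in the DMA pool and 333 in the control pool (log2 ratio -0.72).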

How the data were processed

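Pooled rat urinary bladder RNA, whole or epithelium-enriched, was labelled with a GeneChip WT PLUS kit and measured on 2 arrays. Per the labels, the authors made the deposited signal intensities with RMA in Affymetrix Expression Console 1.4.1. Which genome build and annotation the clusters follow was not given in the sources used here. The deposited intensities are linear, and 100% of their log2 values fell on 6 decimals. The study's methods name another array, a global median normalization and the removal of signals under 100, none of which the file shows. RMA removes a change shared by most transcripts and narrows the ratios of dim clusters.

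Clusters were named from the platform annotation. Of 68842 clusters, 23446 had 1 symbol, 505 had several and 44891 had none. Ratios, Z and list medians were computed with Python 3.11.15, numpy 2.4.6, pandas 2.3.3 and statsmodels 0.14.6. Only Z and the 2-fold calls were tested on simulated ratios, with changes larger than those of any vessel gene. The ratios themselves, the list medians and the 1.5-fold counts were not tested in this way. The methods' thresholds (a ratio of at least 2 or at most 0.5, with a Z of at least 2 or at most -2) were kept, and a 1.5-fold rule was added. Every measured gene of the vessel set is given, the others with their signals, and of each pathway or marker list in the report up to 4 genes with the largest log2 ratios in either direction. The genes named under other observations, and Vegfa and Lyve1, were chosen after their values were seen. The members, lists and thresholds were chosen with earlier results of these data known. The number of arrays limits the precision of every value. Signals of different genes were not ranked against each other. The brightest cluster of a gene was the one with the highest mean log2 signal, and summed signals of a marker list are dominated by its brightest clusters.

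The alternatives were other signal minimums (none, 50, 200, both signals at least 100), a mean over clusters, arrays centred on their medians, a loess on mean signal (span 0.4), signals raised to 100, updated symbols and a Z over all measured genes.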

Additional observations from a re-analysis of the deposited data

How the results depend on the processing

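The measured vessel genes that an alternative still held (18 with a minimum of 200, 23 with both signals at least 100, otherwise all 24) kept the direction of their ratios, except that Clec14a (-0.09) and Rgs5 (-0.01) fell below 0 with the arrays centred on their medians. The Z over all measured genes leaves ratios as they are. No vessel gene was called at 2-fold in either direction under any alternative run, and the number at least 1.5-fold lower was 4 (loess), 6 (arrays centred) or 5 (all others). Their median log2 ratio ran between -0.36 (arrays centred) and -0.18 (no minimum, 39 genes). The median of all measured genes was -0.14 with the arrays centred and 0.029 with no minimum, against -0.04. The further endothelial genes had -0.067 with no minimum and -0.41 with a minimum of 200, against -0.27. The Notch and ALK1 genes had -0.051 with the arrays centred, against 0.05, and the urothelial markers had -0.055 with the arrays centred and 0.22 after loess, against 0.04. The cause was not tested. No paired analysis was possible because each group was 1 array, and for the same reason no array could be left out. Signals under 100 limit what can be said of the 15 dim genes.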

Other observations

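Genes that act on or with the vessel genes were read from 3 lists written after the values of the vessel genes were seen, so they are given as values only. Of 15 secreted regulators of angiogenesis, 12 were measured, with a median log2 ratio of -0.49. At least 1.5-fold lower in the DMA pool were 5 of the 12, beside 5.48% of all measured genes. By the rule of 2-fold lower with a Z of at most -2, 3 were called, beside 1.42% of all. Thbs2, an inhibitor of vessel growth made by fibroblasts, had a signal of 3573 in the DMA pool, against 11577 in the control pool (log2 ratio -1.70). Serpinf1, or PEDF, another inhibitor, had 2539 in the DMA pool, against 5911 in the control pool (log2 ratio -1.22). Cxcl12, a chemokine that guides endothelial and blood cells, had 252 in the DMA pool, against 545 in the control pool (log2 ratio -1.11). Thbs1, an inhibitor related to Thbs2, had 2136 in the DMA pool and 1900.0 in the control pool (log2 ratio 0.17), on the other side of 0.

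Of 10 leukocyte partners of the vessel adhesion molecules, 5 were measured, with a median log2 ratio of -0.37. Ccr2, the receptor that brings monocytes into tissue, had 349 in the DMA pool, against 1210.4 in the control pool, a 3.47-fold lower signal (log2 ratio -1.79). Itga4, the alpha chain of the integrin that binds Vcam1, had 189 in the DMA pool and 269.8 in the control pool (log2 ratio -0.51), and Itgb1, its widely expressed beta chain, had 41381 in the DMA pool and 39709 in the control pool (log2 ratio 0.06). Selplg, the ligand of the selectins, had 382 in the DMA pool and 495 in the control pool (log2 ratio -0.37).

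Among 6 receptors that share ligands or complexes with Calcrl and the neuropilins, 5 were measured with a median log2 ratio of -0.22. Ackr3, a scavenging receptor for Cxcl12 and adrenomedullin, had 755 in the DMA pool and 1134 in the control pool (log2 ratio -0.59). Ramp1, which turns Calcrl into a receptor for the peptide CGRP, had 307 in the DMA pool and 259 in the control pool (log2 ratio 0.24). Ramp2, from the list of further endothelial genes, lay on the other side of 0. It had 241 in the DMA pool and 295 in the control pool (log2 ratio -0.29).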
